A study of Mus musculus with 12 samples.

Results

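The 10 genes described here sense microbial products, or pass on or restrain that signal. They were measured in mouse pancreatic tumor cells with and without recombinant DKK3 (rDKK3), a secreted protein that these cells cannot make. The members were found by gene name in the raw count table and were 10 of 57186 named genes: the receptors Tlr1, Tlr2, Tlr3, Tlr4 and Tlr5, the endotoxin co-receptors Cd14 and Ly96, the adaptors Myd88 and Ticam1, and the inhibitory kinase-like protein Irak3. The 12 libraries came from 3 DDKC tumor cell lines, DDKC_9750, DDKC_9790 and DDKC_9804, each untreated or given rDKK3, with 2 libraries for each line and condition. By the study's methods the DDKC cells are Dkk3-/- and come from mice with Cre under the pancreatic Ptf1a promoter. Untreated and treated cells alike carried these alleles and lacked DKK3, each line being grown from tumor tissue of that genotype. The labels give neither the dose nor the duration of rDKK3, nor the age or strain background of the mice, and they do not say that the 2 libraries of a condition came from separate cultures.

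Toll-like receptors are membrane proteins that bind conserved parts of microbes, Tlr4 with lipopolysaccharide (endotoxin), Tlr2 with bacterial lipopeptides in pairs with Tlr1 or Tlr6, Tlr5 with flagellin and Tlr3 with double-stranded RNA in endosomes. Endotoxin reaches Tlr4 through the binding protein LBP and the surface protein CD14, and is held by MD-2, the product of Ly96, which sits on the outer part of Tlr4. Signals leave through MyD88 towards NF-κB and the inflammatory genes, or through TRIF, the product of Ticam1, towards interferon genes, and Irak3 (IRAK-M) restrains the MyD88 branch. Macrophages are best known for this machinery, and epithelial tumor cells can also carry parts of it.

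Libraries held 3822987 to 24541083 counts, with a median of 14250180 in untreated and 6579895.5 in rDKK3 libraries, so treated samples were measured less deeply. The 2 libraries of a line and condition differed by less than sampling noise once each line and condition was allowed the same shift from its lower-numbered to its higher-numbered library. Their mean deviance per degree of freedom was 6.39 without that shift and 0.765 with it. They were therefore summed, and the line was the replicate (n = 3). Levels below are CPM, counts divided by the TMM effective library size and scaled to the usual unit, and a floor of 3 counts corresponded to 0.0856 to 0.292 CPM. The cells had epithelial keratins, with Krt8 between 816 and 2840 CPM, but Epcam was only at 0.411 to 2.05 CPM. Of 6 acinar genes, Cpa1, Amy2a2 and Ptf1a were at 0 in every sample. Cela1 was at 0.4 to 11.8 CPM, Bhlha15 at 0.172 to 1.17 CPM and Prss2 at 0 to 0.257 CPM. Of 12 macrophage markers, 6 (Adgre1, Lyz2, Fcgr1, C1qa, C1qb and Tyrobp) were at 0 counts in every sample, Ptprc had at most 3 counts and Itgam at most 1. The summed macrophage list lay at 9.74 to 35.0 CPM in untreated and 11.4 to 49.9 CPM in treated samples and was carried by Cd68, Csf1r and Mrc1. These 3 had a median log2 fold change of 0.88, beside -0.01 over all genes. Over lines 0 of them were called. With the 12 libraries as separate samples 1 was called higher, beside 18.1% of all genes called in either direction. Mrc1 went from 3.57 to 15.8 CPM in DDKC_9804 and from 5.93 to 3.94 CPM in DDKC_9790, and had 4 counts in each condition of DDKC_9750. The part of these 3 genes in the results was not tested.

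In the test over the 3 lines, no member passed the threshold for a change with rDKK3. The edgeR quasi-likelihood test with the line as a block called 0 of the 9 members that passed the filter on low counts (Tlr1 did not pass), and 0 had an unadjusted p under 0.05. Over all 15214 genes tested it called 1, a share of 0.00657%, and 1262 had an unadjusted p under 0.05. DESeq2 also called 0 members. The members' median log2 fold change was 0.03, beside -0.01 over all genes, with 6 positive and 3 negative. Inside single lines, treated and untreated levels differed by more than counting error, in opposite directions. These are paired values of 1 treated and 1 untreated sample, whose exact 95% intervals cover counting error only.

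In DDKC_9750, 7 of the 9 members were higher with rDKK3 by more than counting error, 0 were lower and 2 lay within it. In DDKC_9804 the same count was 0 higher, 5 lower and 4 within, and in DDKC_9790 it was 1 higher, 2 lower and 6 within. The 4 in DDKC_9804 include Tlr5, which was at 0 in both conditions and could not be called. By the same rule 23.9% of all genes were higher and 24.6% lower in DDKC_9750, 22.1% and 23.1% in DDKC_9790, and 25.4% and 31.4% in DDKC_9804. Scaling by RLE or the upper quartile gave the same counts in each line. Scaling by the library total gave 2 higher and 1 lower in DDKC_9790, where Myd88 became higher and Tlr3 fell back within counting error. With only the lower library numbers, which are the shallower ones, DDKC_9750 had 5 higher, Tlr4 and Tlr5 falling back within counting error, DDKC_9804 had 4 lower, Ticam1 falling back, and DDKC_9790 had 0 higher and 2 lower, with Ticam1 in place of Tlr3. With only the higher library numbers DDKC_9750 had 7 higher, DDKC_9804 had 5 lower, and DDKC_9790 had 2 higher and 1 lower, Myd88 becoming higher and Tlr3 falling back within counting error.

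**Figure D1:**
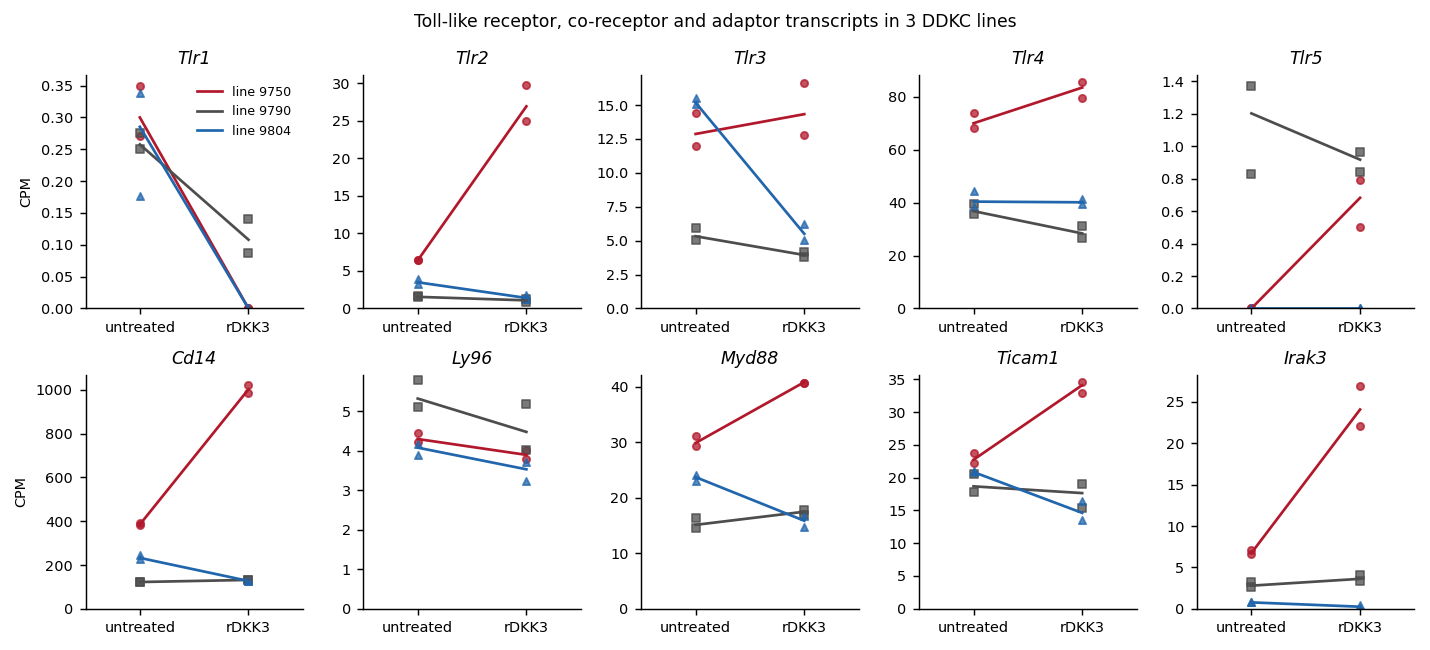
Level of each of the 10 genes in CPM (y axis, linear, from 0) without and with rDKK3 (x axis) in the 3 lines. Points are single libraries and lines join the summed samples, and DDKC_9750 with rDKK3 is the highest sample for Tlr2, Tlr4, Cd14, Myd88, Ticam1 and Irak3.

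Tlr2 (chr3:83743579-83749074 in GRCm39, minus strand) had the widest range of ratios between lines among the receptors counted in every sample. Its level was 6.40 CPM in untreated DDKC_9750, 1.55 in DDKC_9790 and 3.48 in DDKC_9804, and 26.9, 1.08 and 1.40 CPM with rDKK3. Treated DDKC_9750 stood well above the other 5 samples, and both of its libraries (29.7 and 25 CPM) exceeded both untreated ones (6.48 and 6.40). The ratio within DDKC_9750 was 4.2-fold, a log2 ratio of 2.07 with an interval of 1.80 to 2.35. In DDKC_9804 the log2 ratio was -1.32 (interval -2.14 to -0.58), and in DDKC_9790 it was -0.52 with an interval of -1.38 to 0.31 that holds 0. Over the lines the mean log2 ratio was 0.08 ± 1.77 (SD, n = 3), so the spread between lines far exceeded the mean. The fitted log2 fold change was 0.24 (SE 0.73, edgeR adjusted p = 0.93), and the alternatives ranged from -0.92 to 1.35.

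Tlr4 (chr4:66745821-66848521, plus strand), the endotoxin receptor, was the most abundant of the 5 receptors in every sample, also per kilobase of exon. It lay at 70.0, 36.8 and 40.4 CPM in untreated DDKC_9750, DDKC_9790 and DDKC_9804 and at 83.4, 28.4 and 40.1 CPM with rDKK3. Line DDKC_9750 was thus highest in both conditions, and untreated DDKC_9790 and DDKC_9804 overlapped in their library values. The log2 ratio was 0.25 (0.14 to 0.37) in DDKC_9750, -0.38 (-0.53 to -0.22) in DDKC_9790 and -0.01 (-0.16 to 0.14) in DDKC_9804. The sign of the value in DDKC_9804 turned positive under RLE scaling (0.02), still within counting error. The fit over lines gave -0.04 (SE 0.16, edgeR adjusted p = 0.945). The lncRNA Gm57137 lies on the same strand within Tlr4, and reads that fell on both would have been dropped in counting.

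Tlr3 (chr8:45848702-45864117, minus strand), the sensor of double-stranded RNA, was at 12.9, 5.33 and 15.2 CPM in untreated DDKC_9750, DDKC_9790 and DDKC_9804 and at 14.3, 3.94 and 5.51 CPM with rDKK3. Line DDKC_9804 accounted for the main difference, a 2.76-fold lower level with a log2 ratio of -1.46 (-1.85 to -1.10). Both treated libraries of that line (6.25 and 5.05 CPM) were below both untreated ones (15.5 and 15.1 CPM). In DDKC_9790 the log2 ratio was -0.43 (-0.87 to -0.01), and in DDKC_9750 it was 0.15 (-0.13 to 0.43). The fit over lines gave -0.57 (SE 0.34, edgeR adjusted p = 0.675), and -0.13 without DDKC_9804.

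Tlr5 (chr1:182782353-182804010, plus strand), the flagellin receptor, was found mainly in DDKC_9790, with 28 counts untreated and 17 with rDKK3 (1.20 and 0.918 CPM). Line DDKC_9804 had 0 counts in both conditions, which allows up to 0.0856 CPM untreated and 0.247 CPM with rDKK3. Line DDKC_9750 went from 0 counts to 7, and the lower bound of the exact interval of the log2 ratio was 2.08. With only the lower library numbers that bound was -0.89, within counting error. The fitted log2 fold change of 0.97 (SE 1.30, edgeR adjusted p = 0.843) rests on these few counts.

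Tlr1 (chr5:65082022-65090906, minus strand), a partner of Tlr2, was close to the floor throughout. It had 9, 6 and 10 counts in untreated DDKC_9750, DDKC_9790 and DDKC_9804 and 0, 2 and 0 with rDKK3. The counts were lower in 3 of 3 lines from shallower treated samples, and the interval of each within-line ratio held 0, so no difference within a line was detectable at this depth. Tlr6 (chr5:65109374-65117440), the other partner of Tlr2, had 19, 14 and 20 counts untreated and 6, 3 and 0 with rDKK3, and its fitted log2 fold change was -1.48 (SE 0.82, edgeR adjusted p = 0.66). It was lower by more than counting error in DDKC_9790 (log2 ratio interval -4.33 to -0.05) and in DDKC_9804 (upper bound -0.78), and within it in DDKC_9750. Both genes are uncertain, because 454 of the 3199 windows of 50 bases in Tlr1 transcripts (14.2%) also occur in Tlr6. No such window was shared among Tlr2, Tlr3, Tlr4 and Tlr5 or between any of them and Tlr1 or Tlr6.

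Cd14 (chr18:36858120-36859851, minus strand), the surface protein that hands endotoxin to Tlr4, was by far the most abundant member. Its level was 385, 122 and 233 CPM in untreated DDKC_9750, DDKC_9790 and DDKC_9804, and 1003, 132 and 127 CPM with rDKK3. Per kilobase it exceeded between 96.6% and 99.9% of all genes tested in each of the 6 samples. Line DDKC_9750 was higher with rDKK3 by a log2 ratio of 1.38 (1.343 to 1.42) and DDKC_9804 lower by -0.87 (-0.95 to -0.79), and in neither line did treated and untreated libraries overlap. Line DDKC_9790 hardly moved, at 0.11 (0.03 to 0.19). The mean over lines was 0.21 ± 1.13 (SD, n = 3), and the fit gave 0.20 (SE 0.43, edgeR adjusted p = 0.898). The treated samples of DDKC_9790 and DDKC_9804 were alike, with library values of 130 and 133 CPM beside 125 and 129 CPM.

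Ly96 (chr1:16758275-16779835, plus strand), whose product MD-2 holds the lipid part of endotoxin on Tlr4, was low and even. It was at 4.30, 5.33 and 4.08 CPM untreated and 3.90, 4.48 and 3.53 CPM with rDKK3 in DDKC_9750, DDKC_9790 and DDKC_9804. The log2 ratios were negative in 3 of 3 lines with a mean of -0.20 ± 0.05 (SD, n = 3), the smallest spread between lines of the 8 members with counts in every sample. Each line's own interval held 0, the widest running from -0.69 to 0.38 in DDKC_9750. The fit over lines gave -0.20 (SE 0.21, edgeR adjusted p = 0.797). Treated samples held only 40 to 83 counts of Ly96, and thinning all samples to the smallest depth moved the fitted value between -0.51 and 0.15 over 20 random draws.

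Ratios per kilobase within a sample show how the parts of the endotoxin receptor stood to each other. Cd14 exceeded Tlr4 22.3-fold in untreated DDKC_9750, 13.5-fold in DDKC_9790 and 23.3-fold in DDKC_9804, and 48.7-fold, 18.8-fold and 12.8-fold with rDKK3. The ratio was therefore higher with rDKK3 in DDKC_9750 and DDKC_9790 and lower in DDKC_9804. Tlr4 exceeded Ly96 by 2.87, 1.22 and 1.74-fold untreated and by 3.77, 1.12 and 2.00-fold with rDKK3. Tlr4 over Tlr2 went from 8.57 to 2.43 in DDKC_9750, from 18.7 to 20.6 in DDKC_9790 and from 9.09 to 22.5 in DDKC_9804. These are ratios of transcripts, 1 value for each sample, and carry no test.

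**Figure D2:**
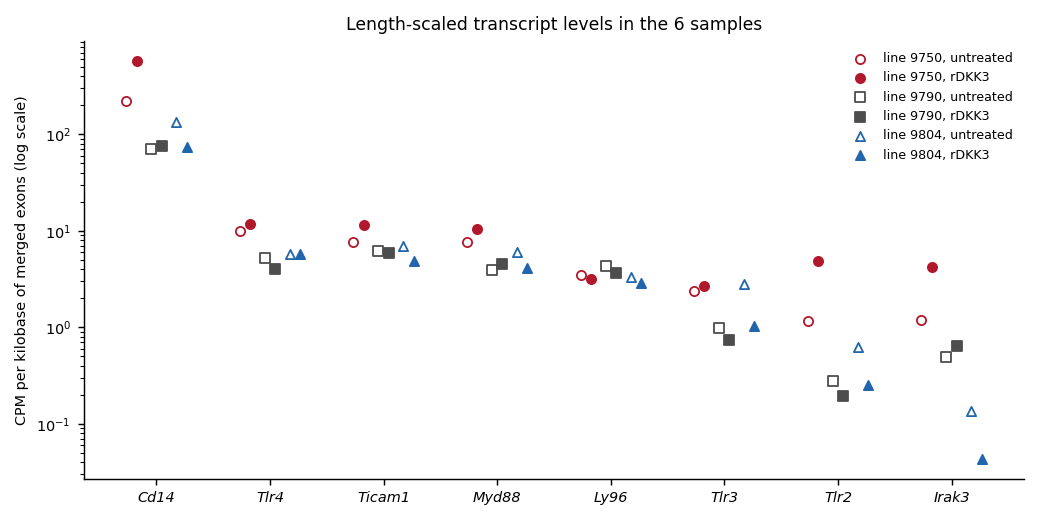
CPM per kilobase of merged exons (y axis, log scale) of 8 members in the 6 summed samples, open symbols untreated and filled symbols with rDKK3. Cd14 lies above every other member in each sample, and Irak3 spans from 0.0436 in treated DDKC_9804 to 4.25 in treated DDKC_9750.

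Myd88 (chr9:119165000-119170477, minus strand), the adaptor of every Toll-like receptor here except Tlr3, was at 29.9, 15.1 and 23.7 CPM in untreated DDKC_9750, DDKC_9790 and DDKC_9804 and at 40.8, 17.5 and 15.9 CPM with rDKK3. It was higher in DDKC_9750 with a log2 ratio of 0.45 (0.28 to 0.62) and lower in DDKC_9804 with -0.58 (-0.81 to -0.35). In DDKC_9790 the interval of -0.01 to 0.43 reached 0. The fit over lines gave 0.03 (SE 0.23, edgeR adjusted p = 0.971). Acaa1a overlaps Myd88 on the opposite strand, and the counting used strand.

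Ticam1 (chr17:56576319-56583786, minus strand), the adaptor of Tlr3 and of Tlr4 inside the cell, followed the same order of lines. It was at 22.7, 18.7 and 20.9 CPM untreated and at 34.1, 17.7 and 14.6 CPM with rDKK3. The log2 ratio was 0.59 (0.40 to 0.77) in DDKC_9750, -0.08 (-0.29 to 0.13) in DDKC_9790 and -0.51 (-0.76 to -0.27) in DDKC_9804. The fit over lines came to 0.0015 (SE 0.24, edgeR adjusted p = 0.999).

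Irak3 (chr10:119977553-120038035, minus strand), the inhibitor of the MyD88 branch, varied between lines about as much as Tlr2, with SDs of the log2 ratio of 1.75 and 1.77 (n = 3). It was at 6.74, 2.79 and 0.771 CPM in untreated DDKC_9750, DDKC_9790 and DDKC_9804 and at 24.1, 3.62 and 0.247 CPM with rDKK3. Line DDKC_9750 was higher with a log2 ratio of 1.84 (1.56 to 2.11), and both treated libraries (26.9 and 22.1 CPM) lay above both untreated ones (7.09 and 6.56 CPM). Line DDKC_9790 was at 0.37 (-0.14 to 0.89). Line DDKC_9804 had only 27 counts untreated and 3 with rDKK3, a log2 ratio of -1.64 with an interval of -4.01 to 0.06. The fit over lines gave 0.66 (SE 0.58, edgeR adjusted p = 0.762).

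**Figure D3:**
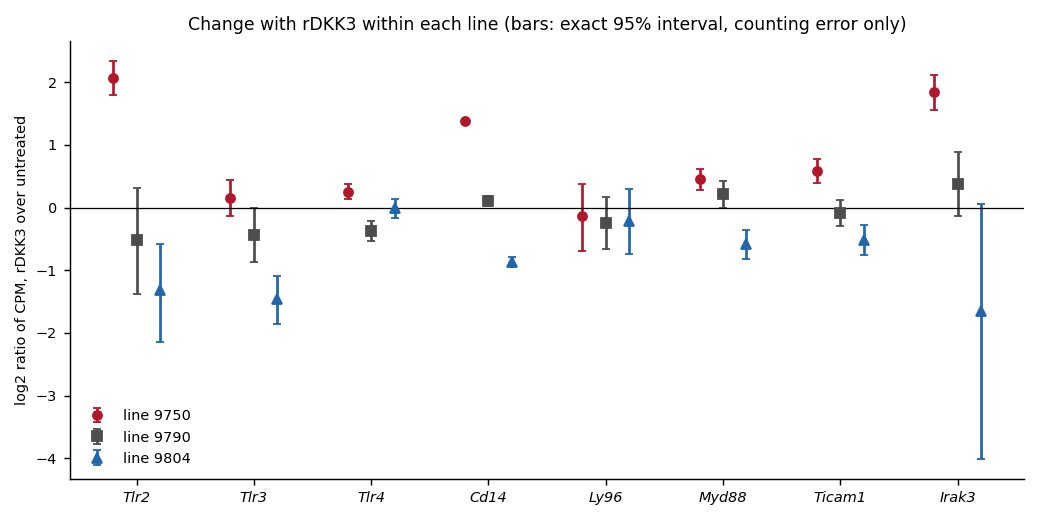
Log2 ratio of CPM, rDKK3 over untreated (y axis), for 8 members in each line, with bars for the exact 95% interval that covers counting error only. Line DDKC_9750 lies above DDKC_9804 for each of the 8, and the 3 lines sit together for Ly96.

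The edgeR fit also asked whether the lines differed in level, with treatment in the model. Tlr4 (adjusted p = 0.0167), Irak3 (adjusted p = 0.0225) and Cd14 (adjusted p = 0.0376) did, 3 of 9 members beside 32.2% of all genes. Line DDKC_9750 was the highest for all 3 genes in both conditions. Tlr2 (adjusted p = 0.0517) and Myd88 (adjusted p = 0.0573) missed the threshold, as did Tlr3 (0.0745), Tlr5 (0.122), Ticam1 (0.175) and Ly96 (0.476) in the same edgeR test. This count moved between 1 and 8 with the processing, and without DDKC_9790 it was 1.

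Treating the 12 libraries as separate samples gave a test of whether the response itself differed between lines, measured against the noise between libraries and not between cultures. In that edgeR fit 7 of the 8 members tested had a line-dependent response, beside 49.3% of all genes. That model did not hold the shift between library numbers. With it as a further term, added after seeing the data, the same 7 members were called, beside 61.9% of all genes. Without it the adjusted p was 3.531e-08 for Cd14 and 9.265e-06 for Tlr2, and 0.977 for Ly96, the member not called. The same 12 libraries with the line in the model called 18.1% of all genes for rDKK3 but 0 of the 8 members, the lowest adjusted p being 0.0966 for Irak3 (edgeR). Without DDKC_9750 the fitted log2 fold changes of Tlr2 (-0.92), Cd14 (-0.38), Irak3 (-0.20), Myd88 (-0.18), Ticam1 (-0.29) and Tlr5 (-0.41) were all negative.

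Likeness of pattern over the 6 samples is given as a description, with no test. Pearson's r of log2 CPM was 0.992 between Tlr2 and Cd14, 0.985 between Cd14 and Myd88 and 0.936 between Tlr2 and Tlr4, whereas Ly96 ran from -0.35 with Tlr3 to 0.54 with Tlr5. The genes most like Cd14 were Trim65 (r = 0.998), Steap4 (0.996) and Pcdhb9 (0.995), and those most like Tlr2 were Rnpep (0.997), Slc22a5 (0.996) and Cd14 itself. Irak3 was most like Bmf (0.998), Timm29 (0.997) and Slfn2 (0.993). The 6 points share lines and library depth.

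Promoters are shown for the 3 members tested whose RefSeq window held a searched motif. Each runs from 250 bases before to 50 bases after the start site in GRCm38.p6, all 3 on the minus strand, with the matched letters in capitals. The motifs were the NF-κB site (by name), GAAANNGAAA for interferon-responsive elements, TTCNNNGAA for STAT factors and TGANTCA for AP-1, on both strands.
Tlr2 (chr3:83841559-83841858): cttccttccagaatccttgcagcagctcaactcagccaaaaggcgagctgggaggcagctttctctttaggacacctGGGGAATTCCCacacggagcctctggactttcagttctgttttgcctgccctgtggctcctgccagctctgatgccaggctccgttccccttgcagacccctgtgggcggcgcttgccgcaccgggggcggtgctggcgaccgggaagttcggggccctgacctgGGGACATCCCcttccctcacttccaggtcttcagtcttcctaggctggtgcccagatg
Tlr3 (chr8:45410331-45410630): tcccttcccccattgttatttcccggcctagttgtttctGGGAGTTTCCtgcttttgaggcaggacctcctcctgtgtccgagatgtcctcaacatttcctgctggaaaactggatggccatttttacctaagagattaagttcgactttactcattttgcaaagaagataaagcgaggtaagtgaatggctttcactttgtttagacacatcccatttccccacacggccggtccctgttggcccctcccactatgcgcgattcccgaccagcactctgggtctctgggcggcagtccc
Myd88 (chr9:119339969-119340268): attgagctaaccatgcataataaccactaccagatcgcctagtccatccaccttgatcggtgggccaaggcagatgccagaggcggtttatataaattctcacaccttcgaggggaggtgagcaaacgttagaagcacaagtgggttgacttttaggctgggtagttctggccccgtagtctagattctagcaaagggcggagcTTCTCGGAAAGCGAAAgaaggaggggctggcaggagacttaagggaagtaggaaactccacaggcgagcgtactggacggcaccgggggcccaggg

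The Tlr2 window held a pair of overlapping NF-κB matches that begin 173 and 172 bases before the start site, and another that begins 8 bases before it. The Tlr3 window held an NF-κB match that begins 211 bases before the start. In Myd88 a GAAANNGAAA match (from base 40 before the start) overlapped a TTCNNNGAA match (from base 46). The windows of Ticam1, Tlr5 and both start sites of Irak3 held none of the 4 motifs, and 1 of the 2 windows of Tlr1 held TTCNNNGAA. Of 32851 promoter windows in the table, 8.46% held the NF-κB letters, 3.44% GAAANNGAAA, 8.30% TTCNNNGAA and 7.81% TGANTCA. The matches are letters in a window, not measured sites. Tlr4, Ly96 and Cd14 were not matched in the table.

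The rest of the pathway was read from 10 lists with 91 genes, of which 70 were tested over the 3 lines. Only 1 gene was called, Lcn2, an iron-carrier binding protein induced by NF-κB, with a log2 fold change of 6.30 (SE 0.24, edgeR adjusted p = 0.01314). Lcn2 went from 60.6 to 4490 CPM in DDKC_9750 and from 0.0571 to 7.81 CPM in DDKC_9804, but DDKC_9790 held 0 counts untreated and 1 with rDKK3. No gene was called when DDKC_9750 or DDKC_9790 was left out. The 15 tested targets of the NF-κB arm had a median log2 fold change of 0.65, beside -0.01 over all genes, with a positive ratio for 14 of 15 in DDKC_9750, 9 of 14 in DDKC_9790, where Lcn2 has no ratio, and 12 of 15 in DDKC_9804, beside 49%, 50.1% and 46.6% of all genes. With 12 libraries as separate samples 14 of 18 were called higher and 0 lower, beside 18.1% of all genes called in that fit in either direction, and the list was chosen with earlier results of these data known. The chemokine gene Cxcl2 was at 0.433, 0.558 and 0.0285 CPM untreated and 25.6, 1.19 and 0.0822 CPM with rDKK3 in DDKC_9750, DDKC_9790 and DDKC_9804 (edgeR adjusted p = 0.597), the last from 1 count in each condition.

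Upstream of the receptors, the 6 tested accessory proteins and chaperones had 0 called. Lbp, which carries endotoxin to CD14, was at 160, 4.34 and 10.6 CPM untreated and 898, 4.59 and 3.20 CPM with rDKK3 in DDKC_9750, DDKC_9790 and DDKC_9804, the same order of responses as Cd14 (edgeR adjusted p = 0.882). Unc93b1, the chaperone of endosomal receptors such as Tlr3, stood at 52.6 CPM in untreated DDKC_9790 against 4.53 and 1.91 in DDKC_9750 and DDKC_9804. Of the adaptors, Tirap, which bridges Tlr2 and Tlr4 to MyD88, was positive in all 3 lines with log2 ratios of 0.17, 0.39 and 0.14 (edgeR adjusted p = 0.65). The 18 kinases and ligases had 0 called over lines and a median log2 fold change of 0.07, and in the 12-library fit 4 of 18 were higher and 1 lower, beside 18.1% of all genes called.

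Among 9 inhibitors of the pathway 0 were called over lines, and 3 higher and 1 lower with 12 libraries, beside 18.1% of all genes. Zc3h12a, an RNase that cuts inflammatory mRNAs, had log2 ratios of 2.40, 0.69 and 0.57, and Tnfaip3 (A20), which removes ubiquitin from the signalling complex, of 0.47, 0.22 and 1.17 in DDKC_9750, DDKC_9790 and DDKC_9804 (edgeR adjusted p = 0.597 for each). The log2 ratio was positive in 3 of 3 lines for 3 of the 9 inhibitors and negative in 3 of 3 for 1, Sigirr, named after its values were seen. Among the 18 kinases and ligases the same counts were 6 and 1. No share over all genes is given here, so these counts do not set the inhibitors apart. Of the 4 tested receptors of the IL-1 family, which share MyD88, 0 were called over lines. With 12 libraries 0 were higher and 1 lower, beside 18.1% of all genes called. Il1r1, the IL-1 receptor, was at 126, 20 and 61.1 CPM untreated and 95, 13.9 and 32 CPM with rDKK3. It was lower in 3 of 3 lines, but was not called over lines (edgeR adjusted p = 0.597). The edgeR fit to 12 libraries gave an adjusted p of 0.001612. That fit counts every library as a replicate, although repeat libraries differed by less than sampling noise once their common shift was allowed. Its value therefore does not establish a change of Il1r1 over lines.

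The 6 transcription factors had 0 called and a median of 0.04, and Rela, a subunit of NF-κB, was at 143, 116 and 116 CPM untreated and 146, 131 and 114 CPM with rDKK3. Other bacterial sensors had 0 of 4 called over lines, and 3 of 5 higher and 0 lower with 12 libraries, beside 18.1% of all genes. Nod1, which binds peptidoglycan fragments, had log2 ratios of 1.57, -0.05 and 0.37. Casp4, a cytosolic sensor of endotoxin, had 1, 0 and 19 counts untreated and 29, 0 and 23 with rDKK3 in DDKC_9750, DDKC_9790 and DDKC_9804. The 5 tested targets of the interferon arm had 0 called and a median log2 fold change of 0.25, and Ifnb1 was at 0 in every sample. Their median log2 ratio was 1.69 in DDKC_9750, 0.10 in DDKC_9790 and -0.39 in DDKC_9804. Ifit3, an interferon-induced gene, had log2 ratios of 1.69, 0.76 and -0.16 in these lines. Its relative Ifit2 differed in sign in DDKC_9750 and DDKC_9804, at 2.37, 3.82 and 4.28 CPM untreated and 1.66, 5.02 and 7.97 CPM with rDKK3.

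**Figure D4:**
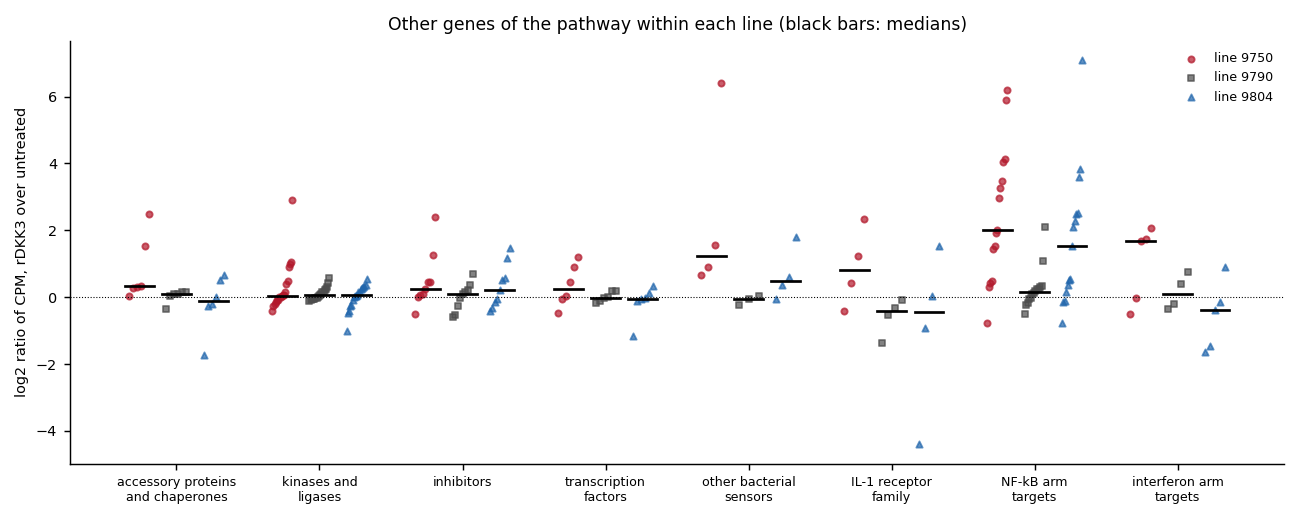
Log2 ratio of CPM, rDKK3 over untreated (y axis), of the tested genes with counts in both conditions of a line, in 8 pathway lists, with black bars for the median of each list and line. The NF-κB arm targets have a median of 2.02 in DDKC_9750, 0.16 in DDKC_9790 and 1.53 in DDKC_9804, whereas kinases and ligases have medians of 0.05, 0.05 and 0.06. Single genes of that list lie further from 0, with Peli3 at 2.9, 0.58 and -1.02 in these lines.

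In DDKC_9804, 0 of the 9 members were higher with rDKK3 by more than counting error and 5 were lower, and of the 15 NF-κB targets 10 were higher and 2 lower by the same rule, beside 25.4% and 31.4% of all genes. This contrast between the lists was not tested. The sum of 6 epithelial markers was lower with rDKK3 in 3 of 3 lines, at 5590, 9660 and 5040 CPM untreated and 3960, 7940 and 3860 CPM treated in DDKC_9750, DDKC_9790 and DDKC_9804. Krt8, Krt18, Krt19 and Krt7 were each lower in 3 of 3 lines, Krt7 at 933, 530 and 499 CPM untreated and 442, 468 and 207 CPM with rDKK3, whereas Cdh1, the epithelial cadherin, was at 789, 653 and 310 and at 1050, 603 and 354 CPM. The list's median log2 fold change was -0.41, with 0 of 6 called over lines and 4 of 6 lower with 12 libraries, beside 18.1% of all genes called in that fit. Their part in the members' levels was not tested. In such bulk samples, fewer cells with a transcript and less of it in each cell cannot be told apart.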

How the data were processed

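RNA was measured by strand-specific, paired-end sequencing of 12 libraries. The authors aligned reads with STAR 2.7.9a to GRCm39 and deposited raw counts per GENCODE M32 gene, made with summarizeOverlaps in Union mode, which drops reads that fall on more than 1 gene of a strand. Rows without a gene name (92, each at 0 counts) were left out. Counts of the 2 libraries of a line and condition were summed, scaled by TMM, filtered with filterByExpr on treatment and tested with the edgeR 4.0.16 quasi-likelihood test with the line as a block and Benjamini-Hochberg adjustment over all genes at 0.05. Treated and untreated samples are paired by line in the labels, and their deviations from the group means correlated at 0.786 to 0.865. The scripts were tested on simulated data. CPM used effective library sizes, and likeness used log2 CPM with a prior count of 2. Intervals are exact conditional binomial at 95% and cover counting error only. Exon lengths came from GENCODE M39, and promoters from RefSeq in GRCm38.p6, where 7 members matched. All 10 members, 3 likest genes for each, and per list the 2 largest changes and the highest CPM could be named. Members and lists were chosen with earlier results of these data known. Alternatives were another normalization, filter, tool, depth, library set or block, and leaving out each line. P-values for rDKK3 over the summed samples measure the spread between 3 lines. Those of the 12-library fits count libraries as separate samples. The test of a line-dependent response sees only the noise between libraries. A further allele that all samples share is not reported here.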

Additional observations from a re-analysis of the deposited data

Results flagged for a closer look

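In total 7 members differed between lines in their response to rDKK3 when the 12 libraries were treated as separate samples (edgeR, interaction of line and treatment). The adjusted p was 3.531e-08 for Cd14, 9.265e-06 for Tlr2, 0.0001525 for Myd88, 0.0002992 for Irak3, 0.0007459 for Tlr3, 0.001114 for Ticam1 and 0.01134 for Tlr4. The log2 ratios in DDKC_9750, DDKC_9790 and DDKC_9804 were 1.38, 0.11 and -0.87 for Cd14 and 2.07, -0.52 and -1.32 for Tlr2. This test sees only the noise between libraries of a line and condition, and 49.3% of all genes passed it. With the library number series in the model, added after seeing the data, the same 7 members passed, beside 61.9% of all genes. With 1 summed sample for each line and condition it has no residual degrees of freedom, so whether separate cultures of a line would differ in the same way was not tested.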

How the results depend on the processing

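Over 15 alternatives, 127 values of member fold changes were computed: 110 kept their direction, 17 reversed and 0 passed the threshold, the lowest adjusted p being 0.0711 for Irak3 (edgeR or DESeq2). Reversed values were Myd88 at -0.01138 without a filter and -0.03299 with the lower library numbers, Ticam1 at -0.01189 with 12 libraries and the line, -0.008571 with the library number series added, -0.04311 without a filter, -0.06831 with the lower library numbers and -0.05532 when thinned, and Tlr4 at 0.04523 with no replicate block and 0.01344 in 12 libraries with no replicate block, an alternative chosen after seeing the data. Leaving out each line gave ranges of -0.38 to 0.75 for Cd14, -0.20 to 1.17 for Irak3, -0.18 to 0.33 for Myd88, -0.29 to 0.25 for Ticam1, -0.92 to 1.06 for Tlr2, -0.19 to 0.13 for Tlr4 and -0.41 to 0.93 for Tlr5, the lowest without DDKC_9750 in each, and Tlr5 did not pass the filter without DDKC_9790. Tlr3 ran from -0.96 (without DDKC_9750) to -0.13 (without DDKC_9804). With no member called, Tlr2 (0.24) was 0.09 with DESeq2, 0.54 with 12 libraries and 0.64 with the series added. It was 0.56 with the lower and 0.37 with the higher library numbers, and 1.35 with no replicate block. Cd14 (0.20) was 0.77 with no replicate block. Irak3 (0.66) was 0.45 with DESeq2, 1.02 with the lower library numbers, 1.22 in the first thinning draw and 1.43 with no replicate block. In 20 further draws Irak3 ran from 0.51 to 1.14. Tlr5 (0.97) was 2.21 with DESeq2, 0.64 with the higher library numbers and 0.48 with no replicate block. The count of all genes called (1) became 2744 with 12 libraries and the line, 3124 with the library number series added, 97 with DESeq2, 90 without a filter, 0 with at least 10 counts in every sample, 0 with no replicate block, 0 with 12 libraries and no replicate block, and 0 to 2 when each line was left out. Thinning gave 1 in the first draw. In 20 further draws, added after seeing the data, it gave 0 to 1, with 0 in 8 of them and 0 members called in any, so that count depends on the draw. Members that differed between lines (3) became 8 with 12 libraries and the line, 8 with the series, 6 with DESeq2, 7 without a filter, 5 with the lower library numbers, 5 with upper-quartile scaling, and 1 to 6 when each line was left out. The causes were not tested. Depth limits Tlr1, Tlr5 and Irak3 in DDKC_9804.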
